A study of Mus musculus with 8 samples.

Results

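The low-count barcodes of 8 single-cell libraries are described here as summed profiles, and set against the annotated cells of the same libraries. A barcode is the droplet tag that groups the molecules (UMIs, unique molecular identifiers) captured together. Members were chosen by their measured UMI totals, as all barcodes with fewer than 100 UMIs that the authors' cell annotation does not list, 22080 of 23980 listed barcodes. They held 629970 of the 2826379 UMIs in the tables. The 654 annotated cells held 903968 UMIs, and 1246 larger unannotated barcodes held the remaining 1292441. Each table lists 2990 to 3000 barcodes. The working name of the low-count ones is ambient RNA, that is, RNA free in the suspension. The tables do not show whether a barcode came from a droplet with no cell, a fragment or a damaged cell, so they are called low-count barcodes below.

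Tumours were subcutaneous grafts of 4T1, a mammary carcinoma line of Balb/c mice, in Balb/c hosts 10 days after injection. The 4 groups were 37C without inhibitor, 37C with inhibitor, 4C without inhibitor and 4C with inhibitor, where the inhibitor of transcription was actinomycin D at 2 nM. All groups shared a 1 h digestion with a protease of Bacillus licheniformis, lysis of red cells, and removal of debris and dead cells. Warm and cold digestions used different dissociators, heated and unheated, and the device and the temperature cannot be told apart. Each group was 1 suspension pooled from 6 tumour pieces of different mice, split into aliquots A and B. The 2 libraries of a group therefore share a suspension. In comparisons among low-count profiles, p-values measure only the spread between such aliquots. In comparisons of low-count profiles with cells, they measure the spread among libraries of the same temperature. Those libraries come from 2 suspensions, 1 with and 1 without inhibitor. Libraries were made with a SureCell 3' kit, which primes reverse transcription at A-rich RNA ends.

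In droplet methods every droplet takes in some of the surrounding fluid, so transcripts of lysed cells are read under barcodes that hold no cell. Long nuclear RNAs such as Neat1 and Malat1 stay in the nucleus of an intact cell. Messages of ribosomal proteins are short and abundant in the cytoplasm, and mitochondrially encoded RNAs stay inside mitochondria.

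Low-count barcodes held between 24443 UMIs (4C inhibitor A) and 149112 UMIs (37C inhibitor A) per library. Warm libraries had 15.9% to 21.3% of their counts in them, and cold libraries 34.9% to 43.9%. The median low-count barcode of a warm library had 32 to 57 UMIs, and that of a cold one 7 to 27. These figures depend on the limit of 100 UMIs. They were not tested, and neither was the part of library depth in them. The limit lay inside a continuous range in the deepest library, 37C inhibitor A, where 79 barcodes had 90 to 99 UMIs and 33 unannotated ones had 100 to 109. In the other libraries these counts were 4 to 14 and 3 to 12. The smallest annotated cell had 200 UMIs. Between any pair of libraries 4 to 19 listed barcodes were shared.

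Only 1 low-count barcode differed by a single base from an annotated cell of its own library. It is printed above that cell's barcode, 5′ to 3′, with the differing base, position 2 of 18, in capitals.
low-count barcode: tCaattgactcgggattg
annotated cell: tGaattgactcgggattg
The first held 48 UMIs and the second, in 37C no inhibitor A, 556 UMIs. No other member lay within 1 mismatch of a cell of its library.

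The UMIs of single genes lay spread over many barcodes. For each gene the number of low-count barcodes holding it was divided by the number expected if its UMIs fell on barcodes in proportion to their totals. Over 2162 genes with at least 60 UMIs the median ratio was 0.977, and the quartiles were 0.965 and 0.988. A ratio of 1 means spread as evenly as chance draws, and lower values mean UMIs packed into fewer barcodes. Only 8 genes fell under 0.9, led by mt-Nd4 at 0.833. The others were mt-Rnr2, mt-Nd2, mt-Cytb and mt-Nd1, also mitochondrially encoded, and Mrpl14, Hras and Gm26917. mt-Nd4 encodes a subunit of respiratory complex I and reached 9 UMIs in 1 barcode. The mitochondrial rRNA mt-Rnr2 was at 0.872, with up to 11 UMIs in 1 barcode. Neat1 was at 0.982 and Malat1 at 0.989.

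The first comparison asks which genes made up a larger share outside annotated cells. Low-count sums held a larger share of Gm42418, an RNA from a ribosomal RNA locus, and of the nuclear RNAs Neat1 and Malat1 than the cells of the same library. They held a smaller share of ribosomal protein and respiratory chain messages. Of 2480 genes tested 541 were higher in low-count sums (21.8%) and 452 lower (18.2%), on the average of both temperatures, with a median log2 fold change of 0.01 over all tested genes. The test was edgeR's quasi-likelihood test with the library as a block and a Benjamini-Hochberg adjusted p under 0.05. In 257 genes (10.4%) the low-count share was above that of the cells in all 8 libraries, and in 356 (14.4%) below it. At 37C alone 503 genes were higher (20.3%) and 372 lower (15%), and at 4C alone 251 (10.1%) and 201 (8.1%). Of the 993 genes called on average (40%), 987 had the same sign at both temperatures. The annotation names 4 cell types (tumour cells, T cells, NK cells and macrophages). The sources used here do not say which genes served to choose these cells, and their part in the differences was not tested.

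Gm42418 (ENSMUSG00000098178.1, GRCm38 chromosome 17, 39846958 to 39848788, plus strand) is annotated as a long noncoding RNA. It lies opposite CT010467.1 (ENSMUSG00000106106.2, 39846353 to 39848827, minus strand), which is annotated as rRNA. The 2 transcripts, of 1831 and 1849 bases, share an exact stretch of 1244 bases on opposite strands. Of the 50-base windows of Gm42418, 94.9% occur in CT010467.1, so the models overlap and their counts depend on how strand was handled, which the labels do not state. The first 60 bases of that stretch are shown, as read in Gm42418 from its base 1, because this RNA alone gave 8.16% of all low-count UMIs.
Gm42418: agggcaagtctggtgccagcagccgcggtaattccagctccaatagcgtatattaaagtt
In CPM (counts per 1000000 UMIs of a sum), low-count Gm42418 was 61679 and 70952 at 37C without inhibitor (A, B) and 94318 and 111813 with it. At 4C it was 70468 and 58334 without inhibitor and 82150 and 95809 with it. In annotated cells it was 19396 to 21842 in all 8 libraries. The lowest low-count value was thus over the highest value in cells, and the cells varied little. The log2 fold change was 2.06 ± 0.09 (SE, edgeR adjusted p = 1.23e-15). CT010467.1 itself was far rarer, with 127 low-count UMIs against 25 in cells (3.11 ± 0.36, edgeR adjusted p = 1.04e-07).

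Of 10 long noncoding RNAs listed, 8 had a row and 6 were tested; 5 were higher outside cells and none lower, with a median of 1.95. The 6 were Gm42418, described above, the predicted gene Gm26917, Neat1, Malat1, Firre and Xist. Neat1 (chromosome 19, 5824708 to 5845478), the scaffold of nuclear paraspeckles, had 993 to 2170 low-count CPM in the libraries at 37C and 2442 to 4018 at 4C. In cells it had 177 to 220 CPM at 37C and 338 to 560 at 4C. All 8 libraries were higher outside cells, and the log2 fold change was 2.99 ± 0.14 (edgeR adjusted p = 5.93e-15). Malat1, a nuclear speckle RNA, was higher by 1.84 ± 0.18 on the log2 scale (edgeR adjusted p = 7.51e-09). Its low-count CPM ran from 284 in 37C inhibitor B, which overlaps the 81.8 to 425 CPM of the cells, to 1242 in 4C no inhibitor A. Within each library the low-count value was the higher. Firre, a nuclear RNA of the X chromosome, was higher by 3.09 ± 0.44. The exception in this list was Xist, the RNA of X inactivation, at -0.20 ± 0.28 (edgeR adjusted p = 0.62).

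**Figure D1:**
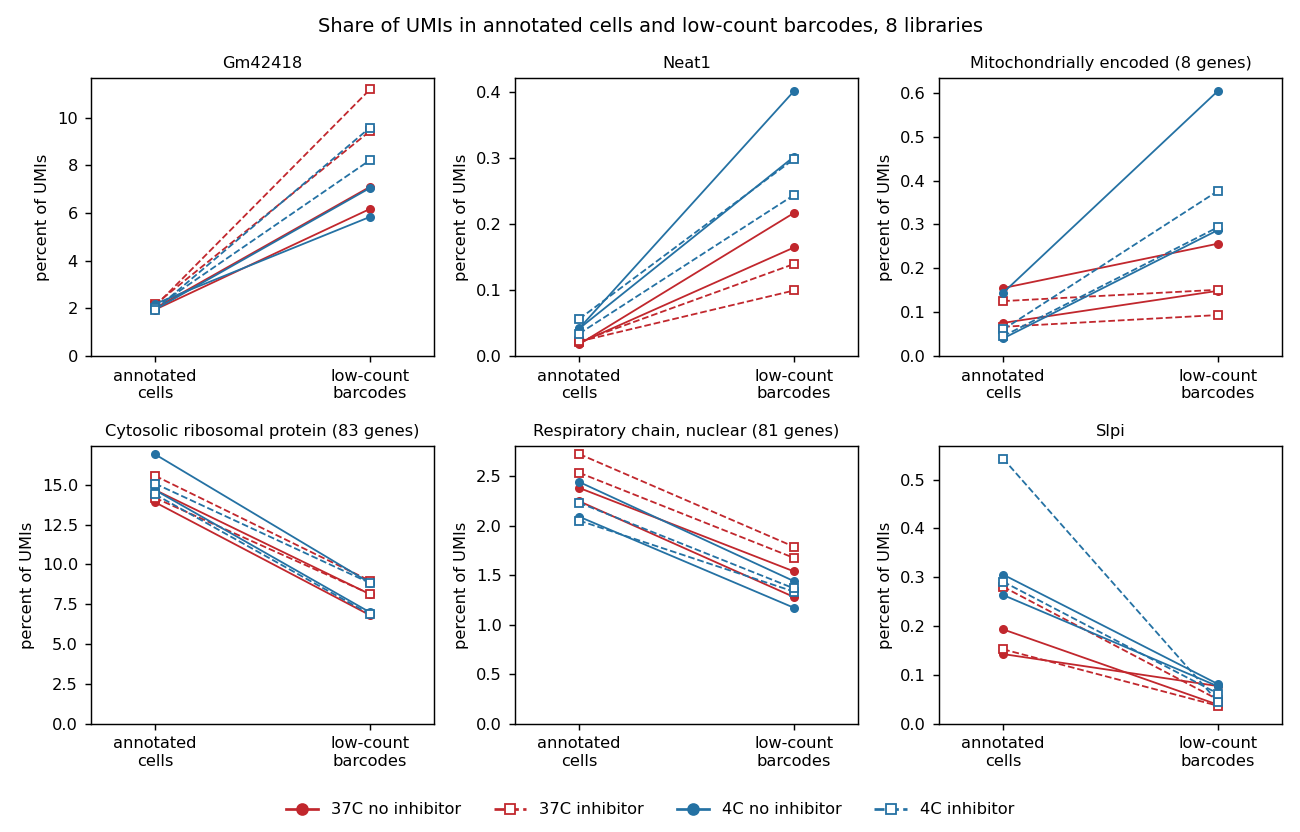
Percent of UMIs (y axis) in the annotated cells and in the low-count barcodes of each library, joined by a line, for 3 genes and 3 gene lists. Red is 37C and blue 4C, filled circles are without and open squares with inhibitor. Gm42418, Neat1 and the mitochondrially encoded genes rise in all 8 libraries, and the ribosomal protein genes, the respiratory chain genes and Slpi fall in all 8.

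Mitochondrially encoded genes, from the small genome inside the organelle, were higher outside cells wherever tested. Only 8 of 15 listed had a row, 6 were tested, and 6 of 6 were called higher, with a median log2 fold change of 1.64. Together they took 0.0932% to 0.256% of low-count UMIs in warm and 0.287% to 0.605% in cold libraries, against 0.0664% to 0.155% and 0.0399% to 0.144% in cells. mt-Cytb, a subunit of complex III, had 182 to 640 low-count CPM at 37C and 804 to 1589 at 4C, against 158 to 392 and 43.1 to 341 in cells. The groups overlapped at 37C and not at 4C. The log2 fold change was 0.65 at 37C and 2.83 at 4C. The spread ratio of mt-Cytb was 0.892, so its UMIs were packed into fewer barcodes than those of most genes. The difference between temperatures in mitochondrially encoded genes has its own test below.

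Cytosolic ribosomal protein genes were lower outside cells. All 83 had a row and 74 were tested; 59 were lower outside cells and none higher, with a median of -0.66. They gave 6.82% to 8.98% of low-count UMIs and 13.9% to 16.9% of the UMIs of cells, so no library's low-count share reached the lowest share in cells. Rps29, a small-subunit protein, had 621 to 1236 low-count CPM over the 8 libraries and 1483 to 2323 in cells, without overlap. It was lower by 1.22 on the log2 scale (SE 0.12, edgeR adjusted p = 4.27e-09). Rplp0, a protein of the ribosomal stalk, was lower by less, at -0.52 ± 0.09 (edgeR adjusted p = 7.34e-05). Rpl35 (-1.61 ± 0.38) was among the largest decreases of all genes. It rests on 35 low-count UMIs, 95.1% of its 50-base windows occur in transcripts of other genes, and its call was lost without 4C no inhibitor B. Many of these genes have near-identical pseudogenes, and of the 40 tested processed pseudogenes 26 were lower and none higher.

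Nuclear-encoded genes of the respiratory chain moved with the ribosomal proteins, not with the mitochondrially encoded ones. Of 64 tested, 38 were lower and none higher, with a median of -0.57. Uqcr11, a small subunit of complex III, was at -1.34, and Cox7c, of complex IV, at -1.17. Glycolytic and hypoxia genes were split, with 5 of 14 lower and 1 higher. Over all tested genes 18.2% were lower and 21.8% higher. Mif, Aldoa, Gpi1, Pkm and Ldha were lower, from -1.26 to -0.49, and Vegfa, a secreted growth factor of vessels, was higher at 1.31. Of 7 heat shock genes tested, 3 were lower (Hsp90aa1, Hsp90ab1 and Hspe1) and Hspa1b was higher. In the actin cytoskeleton list, 2 of 13 were higher and 2 lower, both below the shares of all tested genes.

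**Figure D2:**
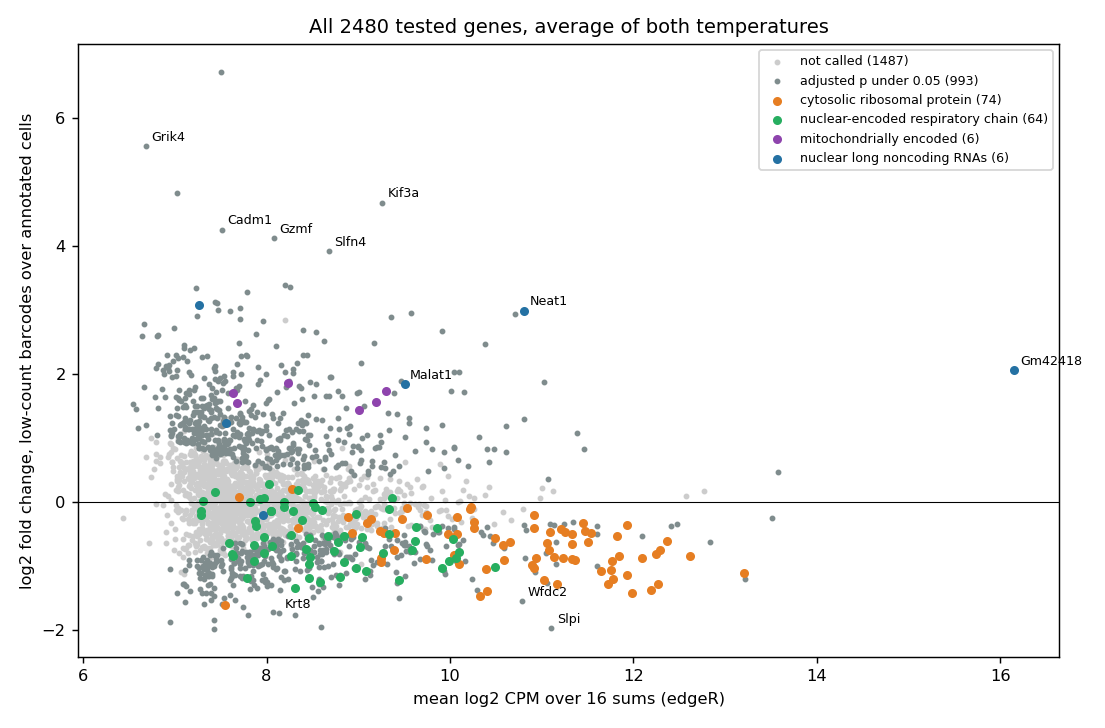
Log2 fold change of low-count barcodes over annotated cells (y axis) against mean log2 CPM (x axis) for the 2480 tested genes, dark grey where called. The ribosomal protein genes (orange) and nuclear-encoded respiratory chain genes (green) lie mostly below 0, with medians of -0.66 and -0.57, and the 6 mitochondrially encoded genes (purple) lie above it.

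Markers of the tumour cells were lower outside cells. Of 10 epithelial 4T1 markers 3 were tested and 3 of 3 were lower, Krt8 (-1.73), Lgals7 (-1.46) and Krt18 (-0.78). The marker sum took 0.0329% to 0.0742% of low-count UMIs and 0.0702% to 0.149% of the UMIs of cells, and was below its own cells in 8 of 8 libraries. Slpi, a secreted protease inhibitor, had 369 to 772 low-count CPM at 37C and 450 to 813 at 4C, against 1428 to 2805 and 2636 to 5428 in cells. Low-count values and cells did not overlap. It was lower by 1.97 on the log2 scale (SE 0.16, edgeR adjusted p = 2.13e-10). Wfdc2, another secreted protein of epithelial cells, was lower by 1.54 (SE 0.13, edgeR adjusted p = 6.88e-10). The other largest decreases were Chpf, Fscn1, Gpc1, Cpq, Gaa, Itgb5, Cdc42ep1 and Fasn. Fscn1 bundles actin, Gpc1 is a cell-surface proteoglycan, Gaa is a lysosomal glucosidase, Itgb5 an integrin and Fasn makes fatty acids. Their log2 fold changes lay between -1.98 (Chpf) and -1.52 (Fasn).

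Markers of immune cells differed by type. NK-cell markers had 6 of 6 tested genes higher outside cells, and 4 of 11 T-cell markers were higher and none lower. Over all tested genes 21.8% were higher. Gzma, a granzyme, had 1065 ± 262 low-count CPM at 37C and 2685 ± 641 at 4C, against 456 ± 205 and 1309 ± 742 in cells, and was higher by 1.29 ± 0.16 (edgeR adjusted p = 3.69e-07). On the average of both temperatures 3 of 14 macrophage markers were higher (Apoe, Lyz2 and Arg1), 1 was lower (Ctsd), and the C1q genes were not called. That share of increases was near that of all tested genes (21.8%). At 37C alone 10 of the 14 were higher and none lower, against 20.3% of all tested genes higher. At 4C alone 1 was higher and none lower, against 10.1%. None was called for the difference between temperatures. Of 4 mast cell and basophil markers tested none was called, and all 4 had values below 0, with a median of -0.94. The 1 dendritic cell marker tested, Fscn1, was the decrease named above. The cell sums rest on 34 to 115 cells. The chi-square per degree of freedom between aliquots was 1.53 to 2.05 in cells and 1.24 to 1.36 in low-count sums.

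Immediate-early genes, a rapid transcriptional response to stress or growth signals, were higher outside cells in 11 of 19 tested members and lower in none, with a median of 0.90. Jun, a part of the AP-1 transcription factor, had 406 ± 73.4 low-count CPM at 37C and 139 ± 48.6 at 4C, against 306 ± 61.5 and 43.5 ± 37.0 in cells. It was higher outside cells in 8 of 8 libraries (1.03 ± 0.28, edgeR adjusted p = 0.00397). Inflammatory NF-kB genes were higher in 8 of 13 tested and lower in none, with a median of 1.16. For both lists the comparison is 21.8% of all tested genes higher. Il1b, which encodes an inflammatory cytokine, was higher by 1.70 ± 0.37 (edgeR adjusted p = 0.000678) and Cxcl2, a chemokine for neutrophils, by 3.36 ± 0.48 (edgeR adjusted p = 3.67e-06). With UMIs pooled over libraries, which weights the deep warm libraries, the list medians were 0.24 and 0.40.

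The genes with the largest increases by the naming rule were Grik4, Kif3a, Cadm1, Gzmf, Slfn4, S100a9, Cxcl2, Mmp12, Gzmg, Gt(ROSA)26Sor, Firre and Lars2. Kif3a (chromosome 11, 53567379 to 53601967), a motor protein of cilia and axons, had 351 to 933 low-count CPM at 37C and 445 to 1973 at 4C. In cells it had at most 67.7 CPM in any library. It was higher by 4.68 ± 0.25 (edgeR adjusted p = 8.07e-14), and its 480 UMIs lay in nearly as many barcodes as an even spread gives (ratio 0.992). Cadm1, a cell adhesion molecule, had 141 low-count UMIs and 9 in cells. Grik4, a kainate receptor subunit of neurons, had 74 low-count UMIs and 1 in cells, a 106-fold higher share (95% exact counting interval 18.5 to 4250). Slfn4, a Schlafen gene of myeloid cells, had 409 to 642 low-count CPM in the 8 libraries and 19.0 to 86.2 in cells. Its groups did not overlap, and it was higher by 3.92 ± 0.24 (edgeR adjusted p = 9.03e-13). Lars2, a mitochondrial leucyl-tRNA synthetase, was higher by 3.03 ± 0.31 (edgeR adjusted p = 1.67e-08). Mmp12, a macrophage elastase, had 0 UMIs in the cells of all 4 libraries at 4C, so its fitted value depends on the prior count. Its pooled share was 1.57-fold that of the cells.

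Of the named increases, Gzmf and Gzmg, granzymes encoded in 1 cluster, share 19.4% and 19.8% of their 50-base windows with other genes, and Slfn4 shares 11.6%. Kif3a shares 1.29%, with Dennd4a first, and Cadm1 and S100a9 share none.

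Of 17580 genes in the tables, 14920 had a UMI in low-count barcodes and 14517 in annotated cells. In all, 1894 genes had a UMI in low-count barcodes and none in annotated cells, together only 3256 UMIs, and 1491 genes had the reverse. With 0 UMIs among 903968, a share of 3 UMIs in the cells is not excluded. The most abundant were Col3a1, a fibrillar collagen of fibroblasts, with 46 UMIs in 44 barcodes, and Il6, a cytokine, with 33 UMIs in 32. Against that floor over the group the share of Il6 was at least 15.8-fold higher. The larger unannotated barcodes held 204 and 73 UMIs of these genes. Gzmk, a granzyme of T cells, had 11 low-count UMIs and 2 in the larger unannotated barcodes. Col3a1 and Il6 lead this ranking, and Gzmk was picked from further down, past genes with more UMIs. All were chosen after their counts were seen.

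Genes that were higher outside cells came from longer transcripts of lower GC content. The longest annotated transcript had a median of 3832 bases among higher genes and 1633 among lower genes, and 2891 among all tested genes. The median GC content was 45.7% and 54.0%, against 49.4% over all. The median gene span was 22200 bases among higher and 7420 among lower genes. Without ribosomal protein genes the lower genes had a median transcript of 1818 bases and 54.3% GC. Across 2477 genes with a transcript, Spearman's rho with the log2 fold change was -0.39 for GC content and 0.35 for length. This is across genes, which are not independent replicates, and length and GC go together.

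A run of 10 A (AAAAAAAAAA, on the transcript strand), at which an oligo-dT primer could bind within a message, was looked for in the last 1000 bases of each transcript. It was found in 56 of 509 such windows from higher genes (11.002%), 25 of 310 from lower genes (8.06%) and 235 of 2202 from all tested genes (10.7%). Over whole transcripts the shares were 23.7%, 12.4% and 19.7%. The median longest run of A was 7 bases in higher genes and 5 in lower genes, and Spearman's rho of its length with the log2 fold change was 0.27. The part of transcript length and GC content in this was not tested. The longest run before the last 30 bases of a transcript is shown in capitals, within 30 bases. The genes are a nuclear RNA and a coding gene that were higher, and Wfdc2, which was lower.
Malat1: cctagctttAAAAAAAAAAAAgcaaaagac
Kif3a: agaagatggagAAAAAAAgaaaaagagaag
Wfdc2: ttaggtgtccgagAAAAgcagggcacctgc
Malat1 held a run of 12, Kif3a of 7 and Wfdc2 of 4. Among other genes examined in this way, the run was 7 in Slfn4 and Neat1 and 6 in Gm42418 and Lars2, which were higher. It was 5 in Rpl35 and Slpi and 4 in Krt8, which were lower. A match is a description of the annotated transcript, and reads at these places cannot be seen in count tables.

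**Figure D3:**
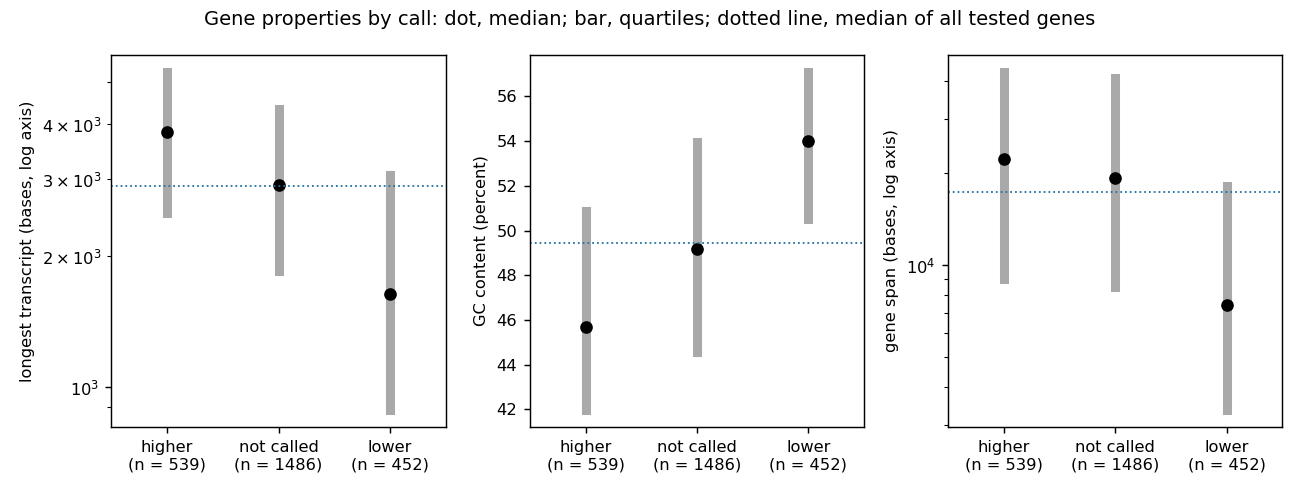
Length of the longest transcript, GC content and gene span (y axes; log axes for lengths) of genes called higher, not called and called lower in low-count barcodes. Dots are medians, bars the quartiles and the dotted line the median of all tested genes; the medians fall from 3832 to 1633 bases and rise from 45.7% to 54.0% GC.

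Composition differed between barcode sizes within the unannotated barcodes. Libraries were summed per temperature, so the mix of libraries can also differ from bin to bin. With the 4 libraries at 37C summed, Gm42418 gave 8.48% of UMIs in barcodes of 25 to 49 UMIs and 8.48% in those of 90 to 99. Just above the limit, at 100 to 109 UMIs, it gave 7.43%, then 4.88% at 500 to 999 and 1.26% above 5000. Ribosomal protein genes went the other way, from 8.01% at 25 to 49 UMIs to 8.45% at 90 to 99, 9.64% at 100 to 109 and 19.5% at 1000 to 4999, but 15.4% above 5000. At 4C the summed values already differed within the members. Gm42418 gave 9.50% in barcodes of 1 to 9 UMIs and 4.66% at 90 to 99, and ribosomal protein genes 6.89% and 15.9%. The median low-count barcode at 4C had 7 and 10 UMIs with inhibitor (A, B) and 18 and 27 without. The smallest bins at 4C therefore draw more on the libraries with inhibitor, and the parts of size and library were not tested. The bins at 90 to 99 and 100 to 109 UMIs hold only 32 and 28 barcodes at 4C, against 116 and 45 at 37C. With the limit at 50 UMIs, 775 of 1813 tested genes were called, against 993 of 2480.

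**Figure D4:**
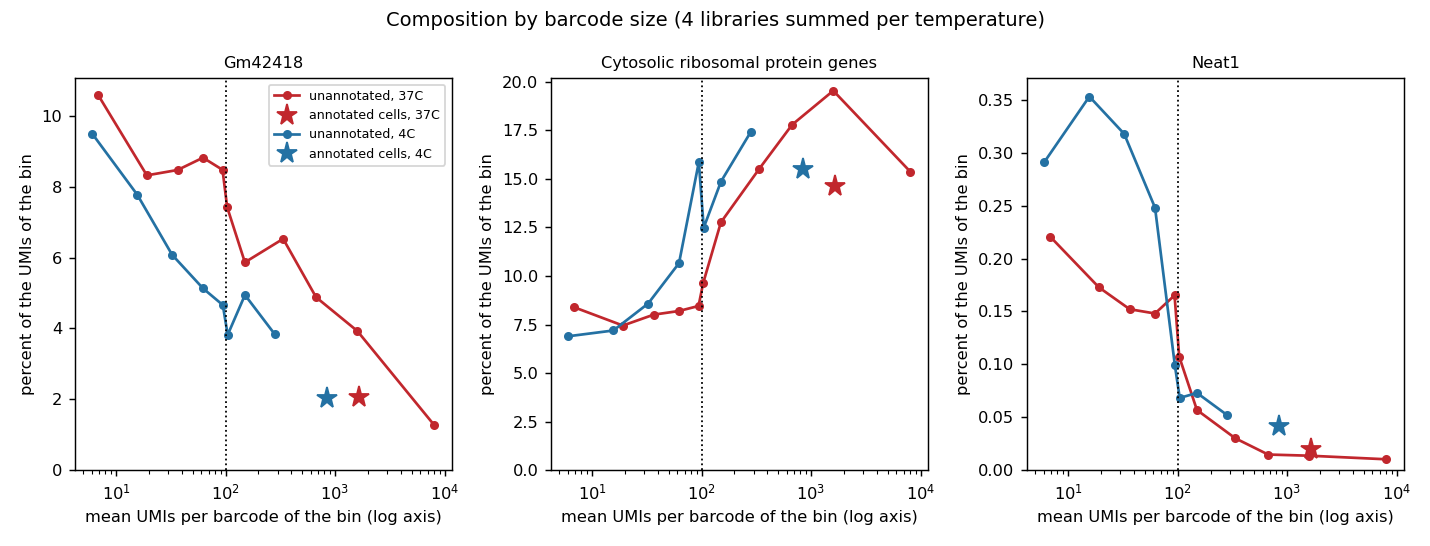
Percent of UMIs (y axis) from Gm42418, ribosomal protein genes and Neat1 by the mean UMIs per barcode of a size bin (log x axis), with the 4 libraries of a temperature summed and bins of under 20 barcodes left out. Lines are unannotated barcodes, stars are annotated cells and the dotted line is the limit of 100 UMIs; Gm42418 is lower and ribosomal protein genes higher in barcodes of 200 to 499 UMIs than in those of 25 to 49 at both temperatures.

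Low-count profiles were also compared whole. Over the 2480 tested genes, Pearson's r of log2(CPM + 10) between a low-count sum and the cells of its own library was 0.345 to 0.779. Between low-count sums of 1 suspension it was 0.602 to 0.893, and between those of different temperatures 0.457 to 0.735. At 37C the annotated type most like the low-count sums was macrophages (r of 0.545 to 0.708). T cells had 0.488 to 0.529, NK cells 0.450 to 0.494 and tumour cells 0.358 to 0.543. Tumour cells ranked last in both libraries without inhibitor and next after macrophages in both with it. At 4C T cells had the highest values (0.493 to 0.568), and macrophages 0.258 to 0.336. These are descriptions over genes that share library and depth, and the lowest values come from the shallow cold libraries. In the deepest cold library, 4C no inhibitor B, macrophages had 0.336, NK cells 0.490, tumour cells 0.501 and T cells 0.543. Each type profile sums all annotated cells of that type at 1 temperature, and the part of the size of these sums was not tested.

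Low-count sums at 37C and 4C were then compared with each other, 4 libraries against 4. Most tested macrophage, immediate-early, inflammatory and MHC class II genes were higher at 37C, and most tested NK-cell and mitochondrially encoded genes and 4 of 11 T-cell markers were higher at 4C. Of 2786 genes tested 407 were called (14.6%), 265 higher at 37C (9.51%) and 142 lower (5.1%), with a median of 0.03. The 4 libraries of a temperature come from 2 suspensions; with aliquots summed, 133 of 4032 tested genes were called, 98 higher and 35 lower. All 4 warm libraries lay above all 4 cold ones in 213 genes (7.65%) and below them in 216 (7.75%). In such sums more cells of a type and more RNA shed per cell cannot be told apart.

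Of 14 macrophage markers tested 13 were higher at 37C, with a median log2 difference of 3.16. The marker sum gave 0.883% to 1.89% of low-count UMIs in warm libraries and 0.185% to 0.279% in cold ones. For annotated cells it was 0.479% to 1.37% and 0.178% to 0.353%, so the cells moved the same way. Apoe, a lipid carrier, had 1671 and 1314 low-count CPM at 37C without inhibitor and 2904 and 2421 with it. At 4C it had 384 and 343 without inhibitor and 81.8 and 92.7 with it. Every warm library was above every cold one, and the log2 difference was 3.59 ± 0.26 (edgeR adjusted p = 2.06e-20). C1qc, a chain of complement C1q, had 258 UMIs at 37C and 4 at 4C, a 27.9-fold higher share. Pf4, a chemokine of platelets and macrophages, was 15.5-fold higher and Ccl24, an eosinophil chemokine, 13.1-fold.

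The other increases named were Ms4a7, Fosb, Lgmn, Ms4a4c, Il1rn, Cxcl16 and Ccl12. Several had no UMIs at 4C with inhibitor, so pooled shares are given in place of fitted values. Lgmn, a lysosomal protease, was 9.90-fold higher, Cxcl16, a chemokine, 7.36-fold, Il1rn, the interleukin 1 receptor antagonist, 6.24-fold and Ms4a4c 6.10-fold. Ms4a7, a membrane protein of macrophages, had 1 UMI at 4C and was 33.8-fold higher (95% exact counting interval 5.88 to 1350). Ccl12, a monocyte chemokine, had 2 UMIs at 4C and was 10.2-fold higher (2.66 to 86.4), and its call was lost without 37C no inhibitor B. Fosb, of the AP-1 family, had 2 UMIs at 4C against 220 at 37C (47.6-fold, 13.0 to 395).

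Immediate-early genes were higher at 37C in 14 of 19 tested members and lower in 1, Btg2, with a median of 1.70. Fos had 542 and 702 low-count CPM at 37C without inhibitor, 248 and 253 with it, and 73.1 to 127 at 4C. It was highest in the warm libraries without inhibitor, with no overlap with 4C, and the log2 difference was 2.02 ± 0.34 (edgeR adjusted p = 2.54e-06). Inflammatory NF-kB genes were higher in 8 of 13 and lower in none, with a median of 1.52. Ccl2, a monocyte chemokine, was higher by 2.11 ± 0.26 and Il1b by 2.04 ± 0.28. All 6 MHC class II genes were higher at 37C, with a median of 2.02. Macrophage markers moved with all of these lists, and their part in them was not tested.

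In the other direction 6 of 7 NK-cell and 4 of 11 T-cell markers were lower at 37C, with medians of -1.30 and -0.84. Gzma was lower by 1.21 on the log2 scale (SE 0.17, edgeR adjusted p = 5.65e-08), with all warm libraries below all cold ones. The named decreases were S1pr4, Bgn, Ltb, Paxx, Kbtbd11, Rhoh, Txk, Atp6v0a2, Fam102a and Rasal3. Rasal3, a Ras regulator of blood cells, had 50.6 to 119 low-count CPM at 37C and 229 to 532 at 4C, without overlap (-2.14 ± 0.33, edgeR adjusted p = 2.84e-07). Fam102a and Txk, a kinase of T cells, were at -2.14 and -2.29. The others rest on 24 to 38 UMIs. Calls of Rhoh were lost without any 1 of the 8 libraries, those of Atp6v0a2 without 6, S1pr4 and Bgn without 5, and Ltb without 3 of the 4 in which it was still tested. That of Paxx was lost only without 4C inhibitor B. With aliquots summed, Bgn, Ltb, Rhoh and Atp6v0a2 were not called (edgeR adjusted p from 0.0569 to 0.117). Bgn is a matrix proteoglycan and Ltb a cytokine of lymphocytes.

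**Figure D5:**
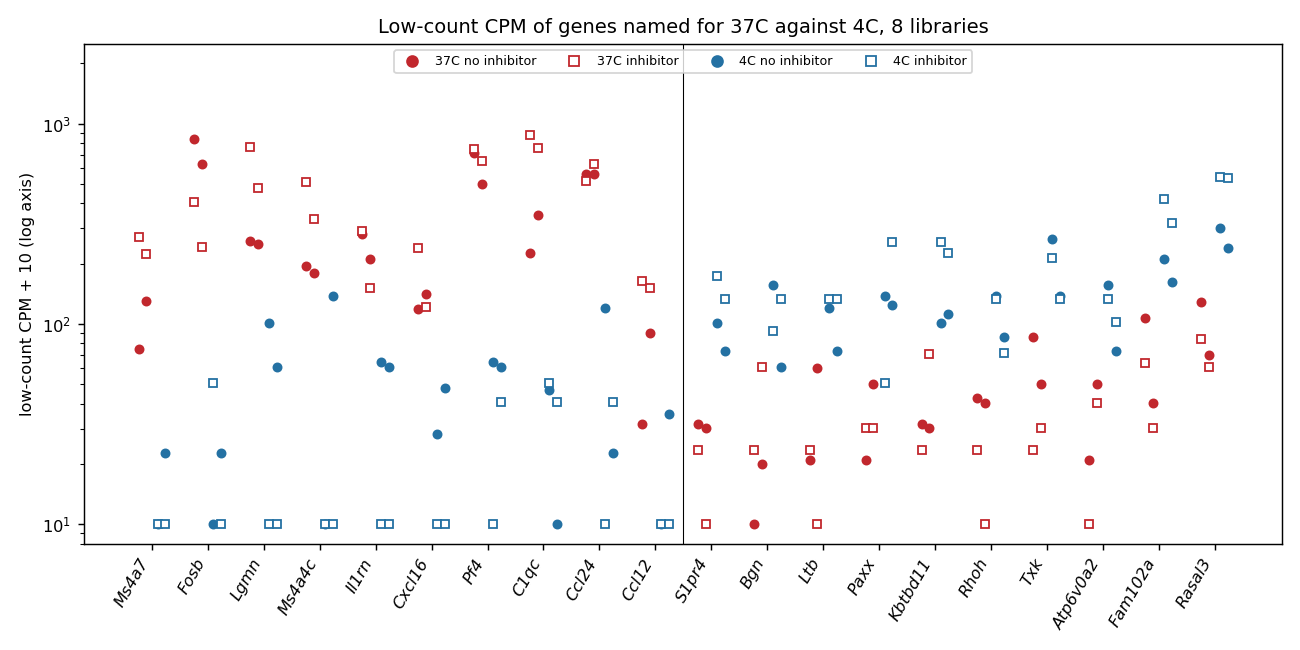
Low-count CPM plus 10 (log y axis) in each of 8 libraries for the 10 genes with the largest named increases (left) and the 10 with the largest named decreases (right) at 37C against 4C. Red is 37C, blue 4C, filled circles are without and open squares with inhibitor; points at 10 are libraries with no UMI, many of them at 4C with inhibitor.

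The low-count effect itself, that is, low-count sums against cells, was called different between temperatures in 4 of 2480 genes (0.161%), 2 in each direction (0.0806%). At an unadjusted p under 0.05 there were 166 (6.69%). mt-Cytb and mt-Nd4 were more over-represented outside cells at 4C, by 2.18 and 1.89 on the log2 scale (37C minus 4C, -2.18 ± 0.39 and -1.89 ± 0.34, edgeR adjusted p = 0.00564 for both). mt-Nd4 had 172 to 466 low-count CPM at 37C and 680 to 1279 at 4C, while cells had 179 to 316 and 135 to 228. Low-count values at 4C lay above all others, and the cells were not higher at 4C. In a fit without the library block the differences of mt-Cytb and mt-Nd4 were -2.09 and -1.86 (edgeR adjusted p = 0.441 and 0.193), and that of Ly6c2, described next, was not called either. Against all barcodes of at least 100 UMIs in place of annotated cells, they were -1.21 for mt-Cytb (edgeR adjusted p = 0.0119) and -1.02 for mt-Nd4, which was then not called (edgeR adjusted p = 0.0624). Of 6 mitochondrially encoded genes 4 were also lower at 37C in the comparison of low-count sums alone. Ly6c2, a surface protein of monocytes and T cells, was over-represented outside cells at 37C only, with log2 fold changes of 2.01 at 37C and -0.12 at 4C (difference 2.14 ± 0.36, edgeR adjusted p = 0.00564). Ly6c2 shares 13.2% of its 50-base windows with other genes, mostly Ly6c1. mt-Nd4 shares 62.2%, all with Gm28439, and mt-Cytb shares none. Thinned to the smallest total, the differences of mt-Nd4 and Ly6c2 were not called (edgeR adjusted p = 0.0967 and 0.0657). That of mt-Cytb still was (edgeR adjusted p = 0.0134).

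S100a9, a calcium-binding protein of neutrophils, was the last of the 4, at 5.09 ± 0.93 (edgeR adjusted p = 0.00564). Its low-count CPM was alike at both temperatures, 312 ± 111 (SD) in the 4 warm and 337 ± 95.1 in the 4 cold libraries. In cells it was 0 to 6.32 CPM in 6 libraries, 22.6 in 4C inhibitor B and 691 in 4C no inhibitor B. Without 4C no inhibitor B the difference was 0.78 (edgeR adjusted p = 0.963), and without 37C no inhibitor B the edgeR adjusted p was 0.052. DESeq2's Wald test did not call it (adjusted p = 0.9998), and against all barcodes of at least 100 UMIs it was 0.85 (edgeR adjusted p = 0.426). Of 28 neutrophil markers 7 were tested. Outside cells 3 were higher (S100a9, S100a8 and Il1b), against 21.8% of all tested genes, and Slpi was lower. The marker sum took 0.155% to 0.297% of low-count UMIs and 0.208% to 0.556% of the UMIs of cells. It was above its own cells in only 1 of 8 libraries. Slpi alone gave 1988 of the 2712 UMIs of this list in cells. No annotated type is named neutrophil.

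Actinomycin D was compared within each temperature, 2 libraries against 2. At 37C 150 of 2786 genes were called (5.38%), 70 higher with inhibitor (2.51%) and 80 lower (2.87%). Immediate-early genes were lower in 7 of 19 and inflammatory NF-kB genes in 7 of 13, and none of either list was higher, with medians of -0.81 and -1.15. Dusp5, a phosphatase that acts on ERK, had 249 and 271 low-count CPM without inhibitor and 26.8 and 10.1 with it, and Gprc5a, an epithelial receptor, 195 and 140 against 0 and 20.3. Both fell beyond the spread between aliquots (edgeR adjusted p = 2.49e-06 and 0.000421), although the call of Gprc5a was lost without either A library at 37C. Igha, the constant region of immunoglobulin A, had 17 UMIs without and 0 with inhibitor, at least 7.32-fold lower by a floor of 3 UMIs over the group. Its share came mostly from 1 library, 37C no inhibitor B, and the call was lost without either library with inhibitor. Macrophage markers were higher with inhibitor in 10 of 14 and MHC class II genes in 4 of 6. In annotated cells at 37C the macrophage share was 0.685% and 0.479% without inhibitor (A, B) and 1.37% and 0.852% with it. Their immediate-early share was 0.721% and 0.638% without and 0.231% and 0.291% with it, so cells moved the same way in both lists. Their MHC class II share was 0.370% and 0.357% without and 0.365% and 0.369% with it. C1qa was 3.92-fold higher (edgeR adjusted p = 2.49e-06). Ctnnd1 (6.45-fold) and Mmp13 (5.03-fold) lost their calls when any 1 of the 4 libraries at 37C was left out. Ctnnd1 also shares 69.5% of its 50-base windows with Gm28635. Gm42418 was higher with inhibitor at 37C by 0.80 ± 0.21 (edgeR adjusted p = 0.00949).

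At 4C 2 of 2786 genes (0.0718%) were called, both lower, and 234 (8.4%) had an unadjusted p under 0.05. Both were granzymes of activated lymphocytes. Gzmf had 639 and 800 low-count CPM without inhibitor and 123 and 0 with it, and Gzmg 402 and 635 against 40.9 and 30.9. Their groups did not overlap. The shares with inhibitor rest on 3 and 2 UMIs and were 0.0719-fold (95% exact counting interval 0.0146 to 0.216) and 0.0653-fold (0.00776 to 0.244) those without. DESeq2's Wald test called neither (adjusted p = 0.997 for both). In cells of these libraries Gzmf had at most 37.9 CPM. Low-count sums at 4C with inhibitor were the shallowest, at 24443 and 32356 UMIs. In simulated data of this depth 3.57% of genes changed 2-fold and 52.2% of those changed 4-fold were recovered for this comparison, so changes of this size were often missed.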

How the data were processed

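Deposited tables hold raw UMI counts per gene and barcode, made by the authors with UMI-tools, STAR 2.7.1a, featureCounts 1.6.0, SAMtools and Seurat on GRCm38, per the submitters' processing notes. The labels do not state strand handling. Counts were summed per library over low-count barcodes and over annotated cells, 16 sums in all. Total counts per library were 55698 to 801510. Genes passing filterByExpr were tested with edgeR 4.0.16 (TMM, glmQLFit, glmQLFTest, R 4.3.3) and Benjamini-Hochberg adjustment at 0.05. Low-count sums against cells used the library as a block, and low-count sums alone a fit of 4 groups. CPM uses a sum's full total, while fold changes come from TMM-scaled fits. Intervals and floors (3 UMIs) cover counting error only.

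Named genes were the largest changes among called genes with mean log2 CPM of at least 6, agreeing in sign across temperatures or inhibitor: 12 each way for low-count against cells, 10 for temperature, up to 5 for the difference and 3 for inhibitor. Predicted genes and pseudogenes were not named by this rule, and list members could be named whatever their call. The members and the 32 gene lists were chosen with earlier results of these data known. Transcript sequences are GENCODE vM21 (GRCm38), and 12505 of 17580 gene identifiers matched with version. Scripts were tested on simulated counts. Alternatives included DESeq2 1.42.0, other filters and limits, thinning, and leaving out each library. Reads outside annotated transcripts could not be judged, since no genome sequence was used here.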

Additional observations from a re-analysis of the deposited data

Results flagged for a closer look

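Among the 4 libraries of a temperature, 1 library stood apart in these low-count values; chance flags about 1 in 20 groups, and 7 of 118 gene groups examined stood apart. At 37C, inhibitor A had the highest total, 149112 UMIs, the highest median number of genes per low-count barcode, 49, and the highest Firre, 221 CPM. Also at 37C, the lowest share of the secreted and matrix list was 0.942%, and the highest Igha was 150 CPM in no inhibitor B. At 4C, the highest share of the heat shock list was 0.199%, the lowest Grik4 was 63.5 CPM in no inhibitor B, and the highest mt-Nd4 was 1279 CPM in no inhibitor A. Ms4a7 at 12.7 CPM, Ms4a4c at 127 CPM and Ccl12 at 25.4 CPM each had UMIs in only 1 library at 4C.

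The low-count effect differed between 37C and 4C by edgeR's test of the difference in 4 genes. The log2 differences (37C minus 4C) were 2.14 for Ly6c2, 5.09 for S100a9, -1.89 for mt-Nd4 and -2.18 for mt-Cytb. That of S100a9 was 0.78 without 4C no inhibitor B.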

How the results depend on the processing

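No named gene reversed under any alternative run; of their values under alternatives, 1039 kept the call and 68 lost it. Thinned to the smallest total, calls of low-count sums against cells fell to 169 on average, 126 at 37C and 120 at 4C; for the difference 2, temperature 125, and inhibitor 11 at 37C and 1 at 4C. With all barcodes of at least 100 UMIs as comparator, 1407 genes were called at 37C and 56 for the difference. The difference had 11 calls without a filter, 14 at 10 counts or more, 9 with aliquots summed and 0 without the library block. DESeq2's Wald test called 170 genes for temperature, 20 for inhibitor at 37C and 0 at 4C (2 by edgeR, 234 at an unadjusted p under 0.05). Temperature with aliquots summed gave 133. Inhibitor at 37C gave 99 without a filter, 61 at a limit of 50 UMIs and 50 with all 16 sums in 1 fit, which gave 0 at 4C. At that limit the low-count share at 37C was 11.6%. Without a filter the median temperature difference was 0.40, over a larger set of genes. Leaving out each library gave 833 to 994 calls on average, 617 to 966 at 37C, 292 to 461 at 4C, 4 to 6 for the difference, 315 to 387 for temperature, 50 to 175 and 2 to 5 for inhibitor at 37C and 4C. With a replicate block (letters A and B) temperature gave 444, and inhibitor 207 and 3. Gene by gene, deviations of same-lettered aliquots correlated at -0.01 to 0.12. In all 4 groups, however, the low-count ribosomal protein share was lower in A (6.82% to 8.15%) than in its B (8.13% to 8.98%). The mitochondrially encoded share was higher in A (0.151% to 0.605%) than in its B (0.0932% to 0.294%), and cells went the same way in both lists. Whether the letters mark a batch was not tested. The cause of the changes under these alternatives was not tested.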
